A study of Marchantia polymorpha and Lactuca sativa with 27 samples.

Results

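A set of 56 genes of the liverwort Marchantia polymorpha, out of 19355 in the deposited count table, stood at least 4-fold above full medium in both starvation groups of the wild type. They were chosen on CPM (the reads of a gene scaled to the total of its library). The rule took log2 of the ratio of group means, with 1 CPM added to each mean, and asked for at least 2 in the libraries labelled no phosphate and at least 2 in those labelled no nitrate. It also asked that the mutant lie within 0.5 of the wild type in full medium and within 1 in the libraries labelled no nitrate. Of 138 genes past both folds, 80 lay beyond either genotype limit, 2 more were left out by identifier, and 56 remained. All 56 passed the filter on low counts, and 20 of them have a symbol in the name table.

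Plants respond to phosphate and nitrate shortage through partly separate pathways, with transporters and scavenging enzymes specific to each nutrient, and also through shared changes such as the build-up of phenolic compounds and the remodelling of cell walls. Class III peroxidases are secreted enzymes that use hydrogen peroxide to oxidise phenolic compounds and can stiffen or loosen the wall. They form a large family in Marchantia, as they do in other land plants. WRKY proteins are plant transcription factors known for roles in stress and defence responses.

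The samples were whole plants of Tak-1, a wild-type male accession, and of the mutant line labelled Mpwrky10. The labels do not give the kind of mutation or the number of lines, nor whether plants were pooled. All plants were first grown as gemmalings, young plants from asexual gemmae, on full-strength Yamagami medium under continuous light. At 7 days they were moved for 5 days to liquid medium that was full strength (2 mM phosphate and 10 mM nitrate), without phosphate (0 mM) or without nitrate (0 mM). Each genotype and medium had 3 libraries, 18 in all.

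The 18 libraries held 18165419 to 25544702 counts each. The phosphate transporter gene MpPTB8 stood at 331 ± 72.1 CPM (SD, n = 3) in the wild-type libraries labelled no nitrate, against 22.5 ± 1.94 CPM in those labelled no phosphate and 31.7 ± 7.83 CPM in full medium. The ammonium transporter gene MpAMT1.4 stood at 265 ± 17.7 CPM in libraries labelled no phosphate, against 32.9 ± 5.16 CPM in those labelled no nitrate and 36.4 ± 1.82 CPM in full medium. High phosphate transporter expression is known from plants short of phosphate and high ammonium transporter expression from plants short of nitrogen, so both genes ran opposite to the labels. In the wild type MpPTB4 averaged 46.5 CPM labelled no nitrate, 0 CPM labelled no phosphate and 0.0562 CPM in full medium. MpPTB1, MpPTB2, MpPTB3 and MpPTB5 averaged 3.45 to 14.4 CPM labelled no nitrate and at most 0.324 CPM in the other media. MpPTB6 was near 0 throughout. MpAMT1.3 averaged 12.2 CPM labelled no phosphate against 1.27 CPM labelled no nitrate, and MpAMT1.5 6.29 against 0.656 CPM. MpPTB7, another phosphate transporter gene, was instead at 12.1 ± 0.718 CPM labelled no phosphate, 9.05 ± 1.86 CPM labelled no nitrate and 5.49 ± 1.21 CPM in full medium. Whether the labels of these media were exchanged was not tested, so each value given for a starvation is that of the libraries labelled so and may belong to the other nutrient. In full medium the targeted gene MpWRKY10 averaged 19.5 ± 2.60 CPM in Tak-1 and 18.2 ± 3.30 CPM in Mpwrky10, which does not check the genotype since many mutations leave the transcript in place. Green-tissue genes (MpRBCS, MpCHLI1/2-like and MpCHLD) were present in every library. Of the male-organ genes followed, the sperm protamine gene MpPRM was at or near 0. MpMID averaged 4.99 to 7.65 CPM and MpDUO1 0.463 to 1.25 CPM over the groups. The median sum of these male-organ genes was 6.41 CPM in wild-type full medium, 8.61 CPM labelled no phosphate and 8.27 CPM labelled no nitrate. Summed levels of 4 oil-body cell genes, MpERF13, MpSYP12B, MpC1HDZ and MpABCG1, were 91.7 to 101.8 CPM in the wild-type libraries labelled no phosphate, 69.5 to 73.8 CPM in those labelled no nitrate and 67.8 to 80.5 CPM in full medium. Summed green-tissue levels were 482 to 511 CPM, 747 to 787 CPM and 892 to 966 CPM in the same groups. The 4 oil-body genes did not move alike. In wild-type full medium and libraries labelled no phosphate, MpABCG1 averaged 22.2 and 42.2 CPM and MpSYP12B 4.98 and 9.15 CPM. MpERF13 averaged 3.30 and 4.04 CPM there, and MpC1HDZ 43.8 and 42.3 CPM. The part of oil-body, green-tissue or male-organ genes in the levels below was not tested.

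The values in wild-type full medium and in both wild-type starvation groups chose the members, so they are given as a description and without a test. On the scale of the rule, the members ranged from 2.00 to 4.08 in the libraries labelled no phosphate (median 2.67) and from 2.03 to 6.30 in those labelled no nitrate (median 2.60). The median over all 13016 genes tested was 0.05 and -0.03. Each of the 56 was higher in all 6 starved wild-type libraries than in all 3 full-medium libraries, which the 4-fold gap of the rule largely sets. In full medium 16 of them averaged under 1 CPM, where 1 count is worth 0.0394 to 0.0513 CPM, so their folds start from few reads. The members nearest the threshold were without a symbol, such as Mp4g19900 at 2.00. Among genes with a symbol, just inside it lay MpPAL-like2, MpPPO72, MpRLK-Pelle_LysM2 and MpPOD31, whose smaller change was 2.03, 2.07, 2.14 and 2.21. Just outside it lay MpLEA-like54, MpPOD36, MpPOD50 and MpABCG20, at 1.94, 1.93, 1.91 and 1.86.

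**Figure D1:**
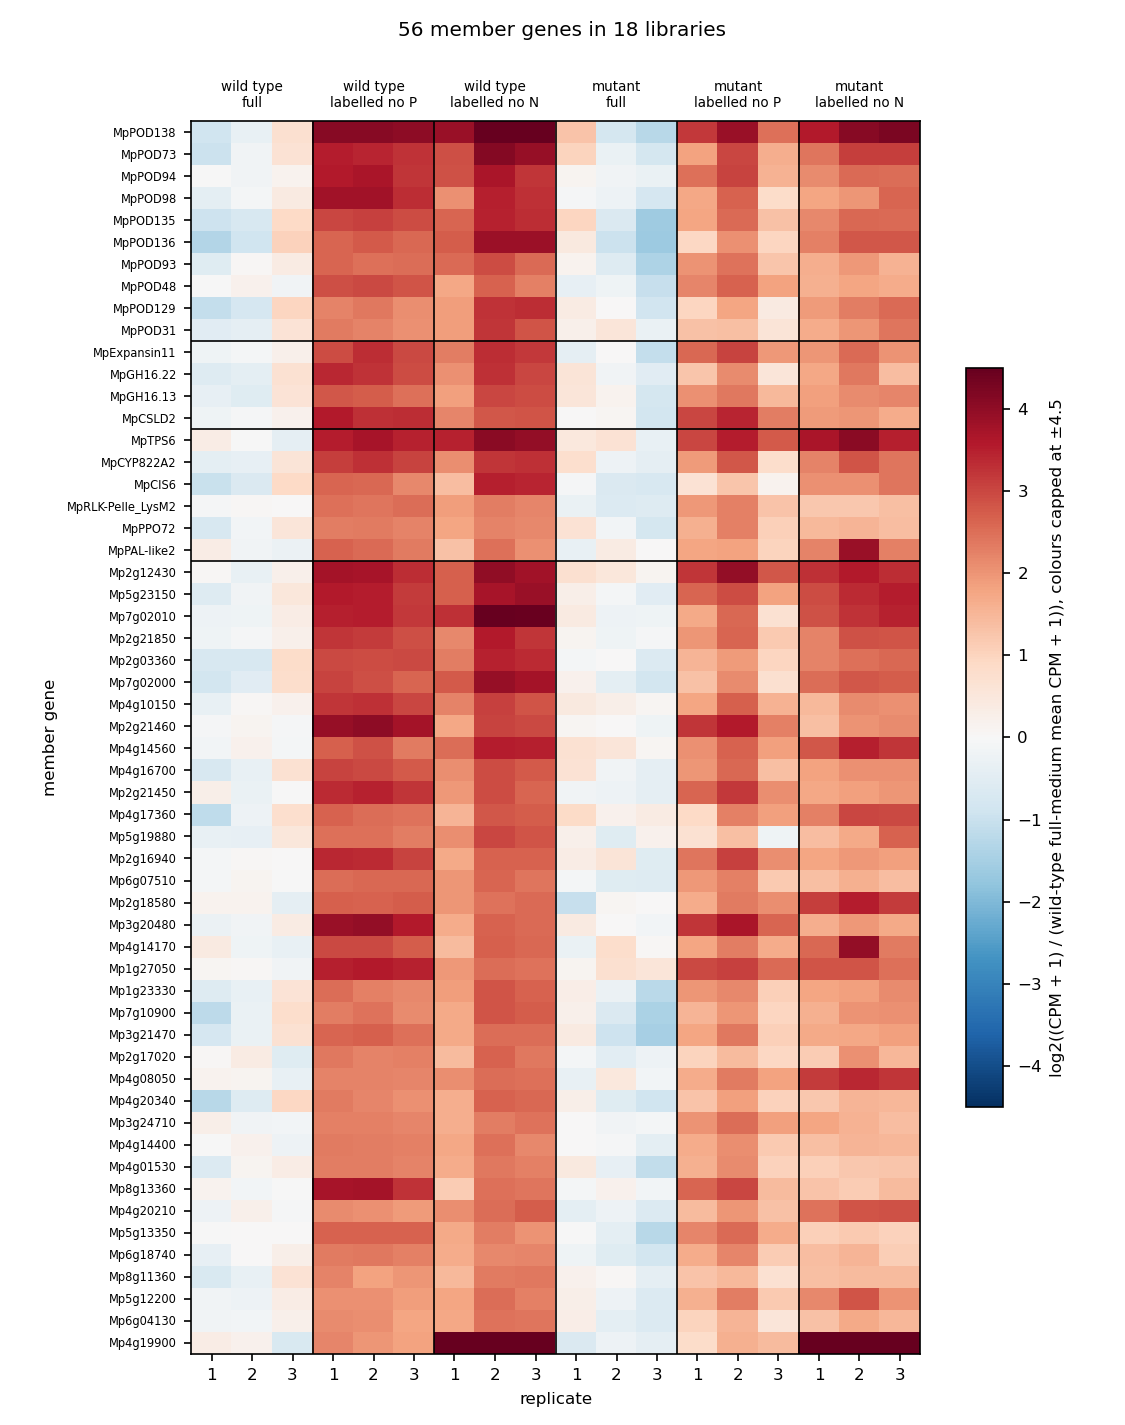
Each row is a member gene and each column a library, in 6 groups of 3 replicates. The colour is log2 of (CPM + 1) over the wild-type full-medium mean (+ 1), with peroxidases, cell-wall genes, other named genes and genes without a symbol separated by lines. In the wild type every starved library is above full medium in all 56 genes, which the rule largely sets. The mutant libraries labelled no phosphate are all above mutant full medium in 54. Mp4g19900 in the bottom row is the one with far higher levels in the libraries labelled no nitrate than in those labelled no phosphate.

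Peroxidase genes were 10 of the 20 members with a symbol. MpPOD138 was at 0.770, 1.62 and 4.47 CPM in wild-type full medium, at 55.4, 54.8 and 52.9 CPM in the libraries labelled no phosphate and at 47.4, 102 and 93.0 CPM in those labelled no nitrate. The starved libraries lay far above full medium, and the first library labelled no nitrate was about as high as those labelled no phosphate while its partners were higher. MpPOD48 was at 4.05, 4.85 and 3.57 CPM in full medium, at 37.4, 39.7 and 35.5 CPM labelled no phosphate and at 16.4, 31.2 and 24.1 CPM labelled no nitrate. For this gene the libraries labelled no phosphate were above all 3 labelled no nitrate. MpPOD94 rested on 6, 5 and 10 reads in full medium (0.308, 0.197 and 0.503 CPM) and was at 14.7, 16.1 and 11.4 CPM labelled no phosphate and 8.71, 16.2 and 11.5 CPM labelled no nitrate. Its starved groups overlapped each other and neither overlapped full medium. Over the 10 peroxidases the group means ran from 0.336 to 5.62 CPM in full medium, from 6.57 to 54.4 CPM labelled no phosphate and from 9.97 to 80.9 CPM labelled no nitrate. How the counting treated reads that fit several close relatives of this family is not known, so values of single peroxidases are uncertain to that extent.

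Cell-wall genes made up 4 of the named members. MpCSLD2 is of the cellulose synthase-like D family, known in flowering plants for the growth of root hairs. It was at 1.54, 1.77 and 2.31 CPM in wild-type full medium, at 32.9, 27.4 and 28.0 CPM labelled no phosphate and at 12.2, 18.9 and 19.7 CPM labelled no nitrate. All 3 libraries labelled no phosphate exceeded those labelled no nitrate. MpExpansin11, of a family that loosens cell walls, was at 1.49, 1.66 and 2.36 CPM in full medium, at 20.7, 27.6 and 21.1 CPM labelled no phosphate and at 13.0, 27.0 and 24.9 CPM labelled no nitrate, so that its starved groups overlapped. The glycoside hydrolase family 16, which in plants includes enzymes that cut and rejoin xyloglucan, gave MpGH16.13 and MpGH16.22. MpGH16.13 was at 4.36, 3.75 and 9.45 CPM in full medium, 47.1, 44.8 and 36.9 CPM labelled no phosphate and 23.9, 54.7 and 50.9 CPM labelled no nitrate. MpGH16.22 rested on 1, 4 and 31 reads in full medium and stood at 15.8, 14.1 and 11.1 CPM labelled no phosphate and 5.67, 14.5 and 11.7 CPM labelled no nitrate. The third full-medium library was the highest of its group for both.

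The remaining named members were 6 genes of several families. MpPAL-like2, of the family of phenylalanine ammonia-lyase, which opens the phenylpropanoid pathway, was at 3.28, 2.01 and 1.81 CPM in wild-type full medium, at 20.3, 18.8 and 15.8 CPM labelled no phosphate and at 7.39, 17.9 and 12.9 CPM labelled no nitrate. MpPPO72, a polyphenol oxidase, of a family that oxidises phenolic compounds to quinones, was at 9.08, 14.1 and 23.1 CPM, then 80.8, 82.6 and 76.8 CPM, then 55.2, 76.1 and 72.3 CPM in the same order of media. MpTPS6, a terpene synthase gene, was at 3.85, 2.84 and 1.91 CPM, then 43.7, 49.1 and 41.5 CPM, then 41.6, 63.6 and 59.0 CPM. In each of these the full-medium libraries lay well below every starved library. MpCYP822A2, a cytochrome P450 gene of a family that oxidises small molecules, had group means of 0.583, 13.0 and 11.3 CPM in full medium, labelled no phosphate and labelled no nitrate. MpRLK-Pelle_LysM2 belongs to the LysM receptor kinases, which in flowering plants bind chitin and related oligosaccharides at the cell surface. Its libraries were close to each other, at 1.13, 1.26 and 1.21 CPM in full medium, 11.4, 10.7 and 11.6 CPM labelled no phosphate and 7.08, 9.80 and 9.11 CPM labelled no nitrate. MpCIS6 rested on 1, 9 and 59 reads in full medium and averaged 10.7 CPM labelled no phosphate and 16.6 CPM labelled no nitrate.

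**Figure D2:**
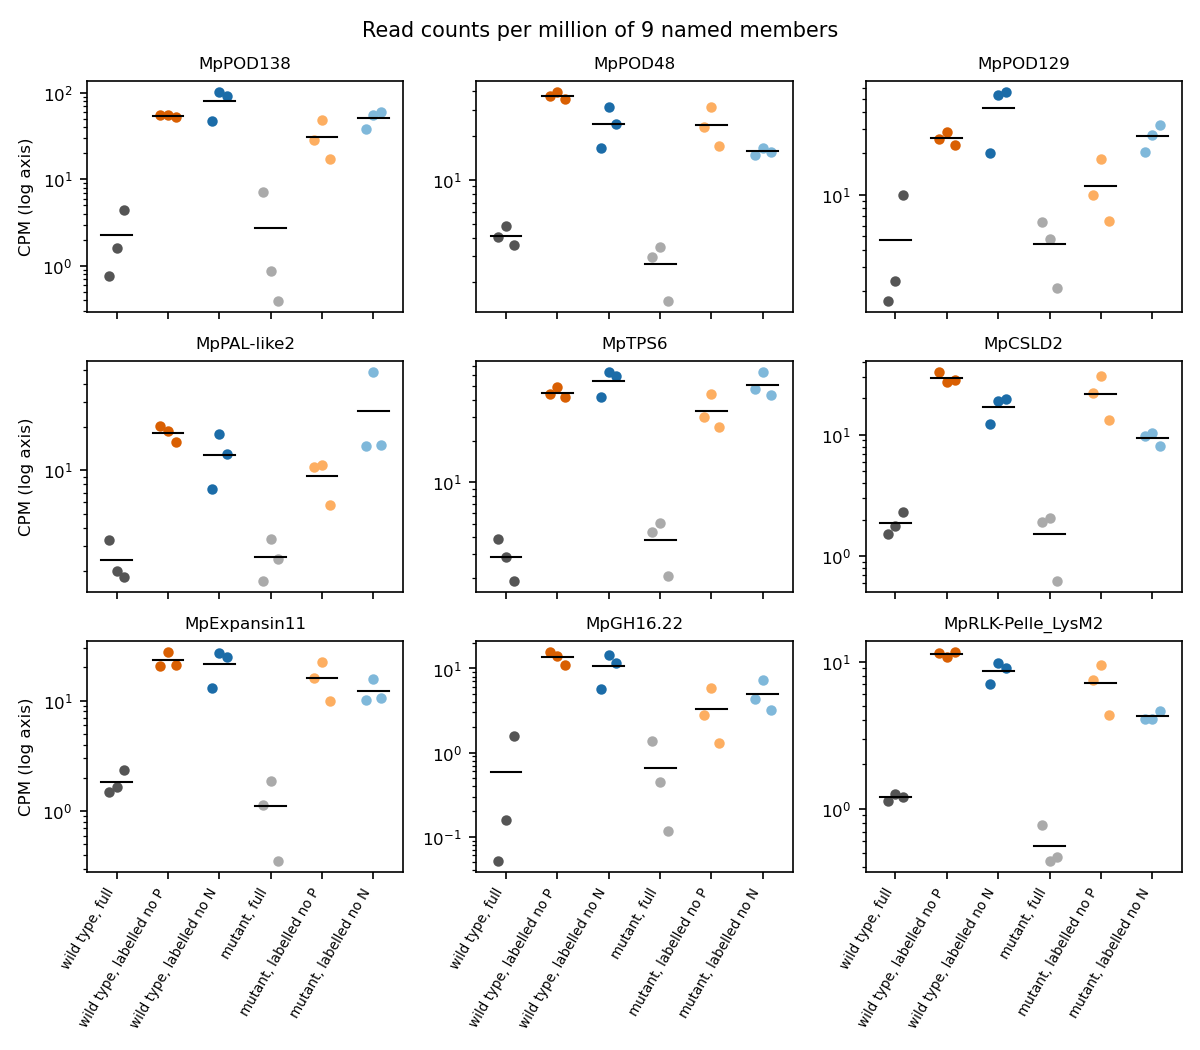
CPM on a log axis for 9 named members in the 6 groups. Each point is a library in replicate order and the bar is the mean of 3. In all 9 genes every starved wild-type library lies above every wild-type full-medium library, which the rule largely sets. Among the mutant libraries labelled no phosphate, replicate 2 is the highest in all 9.

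The mutant libraries labelled no phosphate were the only Marchantia libraries that the rule did not use, and they were compared with mutant full medium, which the rule held near the wild type. Of the 56 members 50 rose, 0 fell and 6 were not called, by the edgeR quasi-likelihood test with Benjamini-Hochberg adjustment over all 13016 genes. Over all genes tested 20.3% rose in this comparison and 16.8% fell. Mutant full medium was held near wild-type values chosen to be low beside the starved groups, so a rise is partly set by the rule. In wild-type full medium 16 members averaged under 1 CPM and had little room to fall. The shares over all genes carry no such limit. The median log2 fold change of the members was 2.45 (range 0.82 to 6.23) and that of all genes 0.03. In 54 of the 56 members the libraries labelled no phosphate all lay above those of full medium, as they did in 31.1% of all genes. In the same mutant libraries the summed green-tissue genes were at 867 to 1010 CPM in full medium and 493 to 554 CPM labelled no phosphate, the 5 photosynthesis and chlorophyll genes tested all fell, and summed oil-body genes were at 59.8 to 73.5 CPM and 68.0 to 78.0 CPM. Of the oil-body genes, MpABCG1 averaged 20.9 and 27.5 CPM and MpSYP12B 4.98 and 6.44 CPM in these mutant groups. MpERF13 (2.49 and 2.41 CPM) and MpC1HDZ (37.8 and 35.9 CPM) were not higher labelled no phosphate. The part of these marker genes in the members' rise was not tested. Fewer cells of a type and less RNA per cell cannot be told apart in these whole-plant samples.

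Of the 10 peroxidase members 8 rose in the mutant libraries labelled no phosphate, with a median log2 fold change of 2.62 over the 10. MpPOD138 went from 7.05, 0.882 and 0.391 CPM in mutant full medium to 28.5, 48.1 and 17.1 CPM (log2 3.51, SE 0.717, adjusted p = 0.00192). The groups did not overlap, although the first full-medium library stood well above its partners. With only these 2 groups in the fit the adjusted p of MpPOD138 was 0.0755. MpPOD48 went from 2.99, 3.48 and 1.49 CPM to 22.9, 31.5 and 16.9 CPM (log2 3.12, SE 0.295, adjusted p = 2.6e-06), and MpPOD94 from 0.463, 0.196 and 0.0783 CPM to 6.42, 9.97 and 2.91 CPM (log2 4.69, SE 0.548, adjusted p = 1.17e-05). MpPOD93 (log2 2.71, adjusted p = 0.000202) and MpPOD98 (log2 3.96, adjusted p = 0.00232) also rose. MpPOD73 (log2 2.53, adjusted p = 0.0102), MpPOD135 (log2 2.27, adjusted p = 0.0232) and MpPOD136 (log2 2.47, adjusted p = 0.0484) passed the threshold but rested on single libraries. Without mutant replicate 2 labelled no phosphate their adjusted p was 0.0559, 0.0936 and 0.174, and without full-medium replicate 2 or 3 it was 0.0755 and 0.0765 for MpPOD135 and 0.128 and 0.154 for MpPOD136, which was also lost without replicate 1 or 3 labelled no phosphate (0.0569 and 0.0547). With only these 2 groups in the fit the adjusted p was 0.0864 for MpPOD73 and 0.167 for MpPOD135. MpPOD31 and MpPOD129 were not called. MpPOD31 was at 0.927, 1.37 and 0.313 CPM in full medium and 3.08, 3.13 and 1.46 CPM labelled no phosphate (log2 1.52, SE 0.653, adjusted p = 0.0838). MpPOD129 was at 6.39, 4.76 and 2.11 CPM and at 9.97, 18.3 and 6.48 CPM (log2 1.35, SE 0.646, adjusted p = 0.125), with groups that did not overlap.

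Among the cell-wall members, MpCSLD2 rose from 1.91, 2.06 and 0.626 CPM to 22.2, 30.2 and 13.2 CPM (log2 3.81, SE 0.364, adjusted p = 3.14e-06). MpExpansin11 rose from 1.13, 1.86 and 0.352 CPM to 16.1, 22.1 and 9.84 CPM (log2 3.82, SE 0.470, adjusted p = 3.18e-05). MpGH16.13 rose from 9.01, 6.72 and 2.94 CPM to 27.6, 34.8 and 17.7 CPM (log2 2.06, SE 0.447, adjusted p = 0.00274). In all 3 the second library labelled no phosphate was the highest and the third full-medium library the lowest. MpGH16.22 was at 1.39, 0.441 and 0.117 CPM in full medium and 2.77, 5.91 and 1.31 CPM labelled no phosphate, with overlapping groups (log2 2.36, SE 0.877, adjusted p = 0.0501).

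MpTPS6 rose from 4.33, 5.10 and 2.07 CPM to 30.1, 44.0 and 25.1 CPM in the mutant (log2 3.07, SE 0.310, adjusted p = 6.78e-06). MpRLK-Pelle_LysM2 had the smallest adjusted p of the members, and went from 0.772, 0.441 and 0.470 CPM to 7.45, 9.53 and 4.32 CPM (log2 3.60, SE 0.275, adjusted p = 8.6e-08). MpPPO72 rose from 25.1, 14.0 and 8.46 CPM to 48.2, 77.5 and 33.3 CPM (log2 1.69, SE 0.393, adjusted p = 0.0044), a call lost with only these 2 groups in the fit (adjusted p = 0.0806). These 3 genes had no overlap between the groups, and the oxidase had the smallest change among the named members that were called. MpPAL-like2 went from 1.70, 3.33 and 2.43 CPM to 10.6, 10.9 and 5.77 CPM (log2 1.80, SE 0.536, adjusted p = 0.0183). Its adjusted p was 0.0694 without full-medium replicate 1, 0.0619 without replicate 3, and 0.0524 and 0.0606 without replicates 1 and 2 labelled no phosphate. MpCYP822A2 went from 1.65, 0.343 and 0.196 CPM to 4.98, 10.1 and 1.76 CPM (log2 2.94, SE 0.796, adjusted p = 0.0106). Its adjusted p was 0.0522 without full-medium replicate 3, 0.0602 without replicate 2 labelled no phosphate and 0.0774 with only these 2 groups in the fit. MpCIS6 was at 1.03, 0.343 and 0.274 CPM and at 2.36, 4.11 and 1.36 CPM and was not called (log2 2.22, SE 1.02, adjusted p = 0.107).

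Of the 36 members without a symbol 34 rose in the mutant libraries labelled no phosphate. The identifiers named here and below were chosen after their values were seen. The neighbouring genes Mp2g21450 and Mp2g21460 had the largest changes (log2 5.20, SE 0.465, and 6.23, SE 0.688, with adjusted p = 6.55e-07 and 8.55e-06). Mp2g21460 was at 0.206, 0.147 and 0 CPM in mutant full medium and at 9.71, 12.6 and 4.57 CPM in the libraries labelled no phosphate. At the other end, Mp5g19880 was at 4.48, 2.16 and 4.38 CPM against 6.52, 10.9 and 3.11 CPM, with overlapping groups (log2 0.82, SE 0.520, adjusted p = 0.247), and Mp4g17360 had log2 1.32 (SE 0.508, adjusted p = 0.0585).

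**Figure D3:**
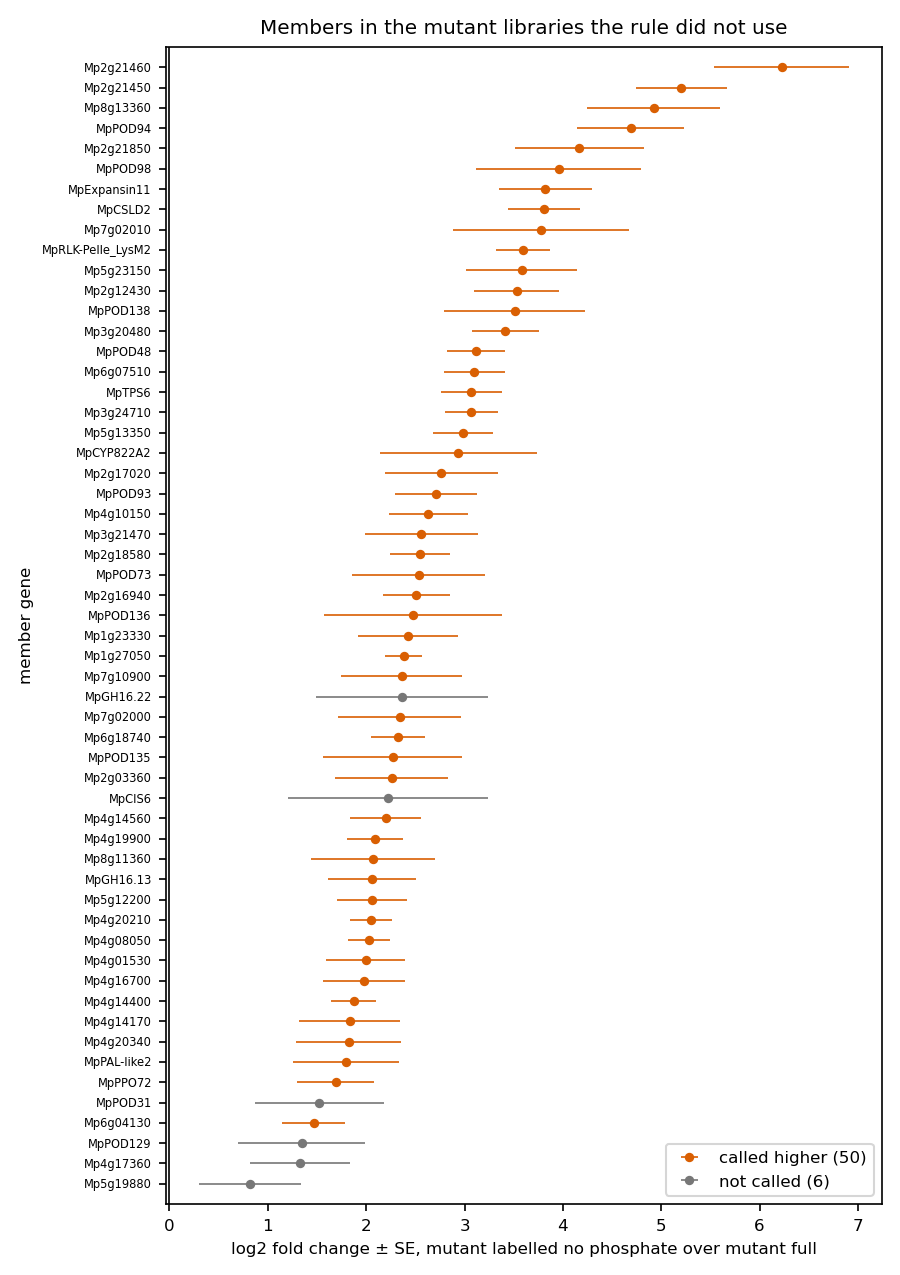
Log2 fold change with its SE for each of the 56 members, mutant libraries labelled no phosphate over mutant full medium (3 libraries each), in order of size. The 50 genes called higher are orange and the 6 not called are grey, and all 56 estimates lie above 0.

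The family lists place these members among their relatives in the same mutant comparison. The name table holds 166 class III peroxidase genes, of which 109 were tested, and 66 rose, 7 fell and 36 were not called, with a median log2 fold change of 2.47. Of 27 expansin genes 15 rose and 6 fell (median 1.83). Of 24 genes of glycoside hydrolase family 16, 10 rose and 2 fell (median 0.23), and of 33 polyphenol oxidase genes 12 rose and 6 fell (median 0.06). Of 19 early phenylpropanoid genes 7 rose and 3 fell (median 0.75), and of 20 terpene synthase genes 7 rose and 1 fell (median 0.39). For cytochrome P450 genes the counts were 26 and 15 of 85 (median 0.13), and for receptor kinases 21 and 14 of 77 (median 0.05). Only these 8 of the 34 lists held a member. Dirigent genes, which guide the coupling of phenolic compounds, showed 9 rises and 12 falls among 38 tested (median 0.19). Genes of the chalcone synthase family, which begins flavonoid synthesis, showed 7 rises and 3 falls among 21 (median 0.56), and WRKY genes 4 rises and 0 falls among 13 (median 0.20). No member was in these last 3 lists.

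The starved groups of the wild type were also set side by side. Both groups chose the members, each having to exceed the same full-medium mean, which limits how far they can differ, so the counts here are a description and nothing is read from them. By the edgeR threshold 2 members were higher in the libraries labelled no nitrate than in those labelled no phosphate, 5 were lower and 49 were not called, beside 17.5% and 14.6% of all genes. With library totals in place of TMM scaling the split was 1 higher and 7 lower. The median log2 fold change was 0.00, as it was for all genes, and 28 members had a positive and 28 a negative estimate. No member with a symbol was called. The count fell to 4 without wild-type replicate 1 labelled no phosphate and also without replicate 2.

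Mp4g19900 differed by far more between the starved groups than the other members. It was at 3.85, 3.39 and 1.41 CPM in wild-type full medium, at 16.9, 14.3 and 12.6 CPM labelled no phosphate and at 283, 316 and 318 CPM labelled no nitrate (log2 4.48 between the starved groups). In the mutant it was at 5.81, 10.8 and 9.44 CPM labelled no phosphate and at 239, 254 and 269 CPM labelled no nitrate (log2 4.93, SE 0.203, adjusted p = 1.76e-09). The rule held the mutant level labelled no nitrate within 1 of the wild type in log2, so this mutant difference is partly set. Mp4g19900 is the only member whose libraries labelled no nitrate all lay above those labelled no phosphate in the wild type. That order held in 18.2% of all genes tested. The opposite order, with all of them below, held in 14 members and in 35.8% of all genes tested. The other member past the threshold upward was Mp4g20210 (log2 0.51), whose starved groups overlapped and whose call was lost in 8 of 12 alternatives.

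Lower in the wild-type libraries labelled no nitrate were Mp1g27050 (log2 -1.11), Mp3g20480 (log2 -1.44), Mp8g13360 (log2 -1.59), Mp2g21460 (log2 -1.26) and Mp2g21450 (log2 -0.80). Mp1g27050 was at 142, 149 and 139 CPM labelled no phosphate and 48.3, 71.2 and 68.5 CPM labelled no nitrate, against 12.5, 12.2 and 10.4 CPM in full medium. Mp3g20480 was at 56.7, 59.7 and 45.4 CPM and at 11.5, 23.2 and 21.6 CPM, against 2.21, 2.44 and 4.02 CPM. The starved groups of these 5 genes did not overlap. The calls of Mp2g21450 and Mp2g21460 were lost in 6 and 4 of 12 alternatives.

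In the mutant the same comparison called 9 members higher and 7 lower without nitrate (by label), against 15.3% and 11.4% of all genes, with a median log2 fold change of 0.40 over the members and 0.01 over all genes. The rule held the libraries labelled no nitrate within 1 of wild-type values chosen to be high, but left those labelled no phosphate free. Higher levels labelled no nitrate than labelled no phosphate are therefore partly set by the rule. The shares and median over all genes carry no such limit. Of the 7 members past the threshold in the wild type, 6 were called in the same direction in the mutant. Mp1g27050 was not (mutant log2 -0.09, SE 0.167). The wild-type values chose the members and the rule tied the mutant libraries labelled no nitrate to them, so this match is partly set. The mutant calls of Mp8g13360, Mp2g21450 and Mp2g21460 were lost in 6, 5 and 4 of 12 alternatives. The split depended on single libraries: without mutant replicate 2 labelled no phosphate it was 10 higher and 2 lower, without replicate 3 it was 4 and 10, and without replicate 1 it was 6 and 3. Without mutant replicate 2 labelled no nitrate it was 5 and 4.

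MpPAL-like2 and its neighbour Mp4g14170 were among the 9. The call of Mp4g14170 (log2 1.31, SE 0.448, adjusted p = 0.0476) was lost in 7 of 12 alternatives, and without mutant replicate 2 labelled no nitrate its log2 was 0.63 (adjusted p = 0.264). In the mutant MpPAL-like2 was at 14.7, 48.4 and 15.1 CPM labelled no nitrate against 10.6, 10.9 and 5.77 CPM labelled no phosphate (log2 1.58, SE 0.460, adjusted p = 0.0229). Its second library labelled no nitrate was more than 3 times as high as the other 2, and without it log2 was 0.78 (adjusted p = 0.115). The call was also lost without replicate 2 or 3 labelled no phosphate (adjusted p = 0.0515 and 0.0794) and with only the groups compared in the fit (0.169). Mp2g18580 (log2 1.34, SE 0.250, adjusted p = 0.00131), Mp4g08050 (log2 1.39, SE 0.187, adjusted p = 8.2e-05) and Mp4g20210 (log2 1.19, SE 0.189, adjusted p = 0.000419) kept their calls in all 12 alternatives. Of the named members, MpCSLD2 (log2 -1.14, SE 0.295, adjusted p = 0.0107) and MpRLK-Pelle_LysM2 (log2 -0.67, SE 0.214, adjusted p = 0.0262) were lower in the mutant libraries labelled no nitrate. Both calls were lost without mutant replicate 2 labelled no phosphate (adjusted p = 0.0555 and 0.181). That of MpCSLD2 was also lost without replicate 3 labelled no nitrate (0.0502), and that of MpRLK-Pelle_LysM2 without replicate 1 labelled no phosphate (0.0745) or replicate 1 or 2 labelled no nitrate (0.0682 and 0.0692). MpCSLD2 was at 9.86, 10.4 and 8.15 CPM labelled no nitrate, and the wild type had log2 -0.72.

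**Figure D4:**
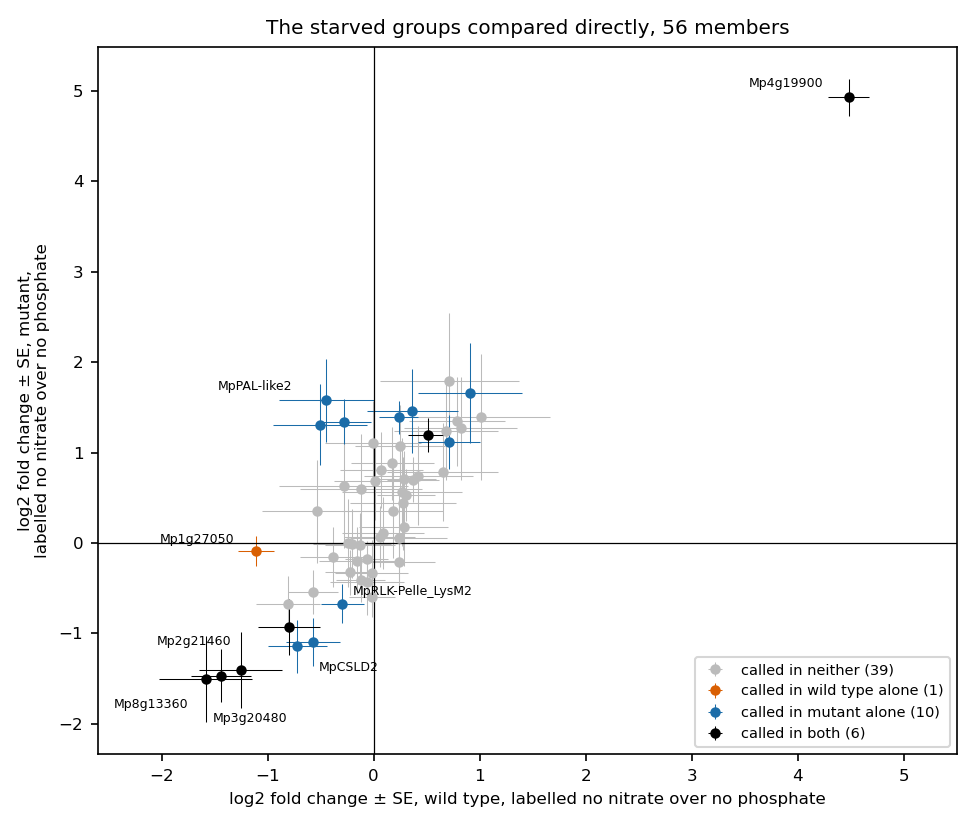
Log2 fold change with its SE of libraries labelled no nitrate over those labelled no phosphate, wild type on the horizontal and mutant on the vertical axis, 1 point per member. Mp4g19900 is at the upper right in both genotypes, 6 members are called in both, and MpPAL-like2 is called in the mutant alone, with a negative estimate in the wild type. The rule used the wild-type groups and held the mutant libraries labelled no nitrate near the wild type, so the match is partly set.

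Mutant and wild type were compared in the libraries labelled no phosphate. The wild-type values there helped to choose the members and the mutant values did not, so a lower mutant is partly set by the rule. All 56 estimates were negative (median log2 -0.77, against 0.01 over all genes). Only 3 members were called, all lower in the mutant, against 3.95% of all genes called lower and 2.66% called higher. Those were Mp1g27050 (log2 -0.61, SE 0.166, adjusted p = 0.0433), Mp4g10150 (log2 -1.20, SE 0.319, adjusted p = 0.0355) and Mp5g19880 (log2 -1.79, SE 0.464, adjusted p = 0.0389). In 43 members all mutant libraries lay below all wild-type libraries, as in 19.7% of all genes. The count was 0 without any 1 of the wild-type libraries labelled no phosphate or without mutant replicate 1 or 3, and 13 without mutant replicate 2. With only these groups in the fit it was 10. All 10 peroxidase members lay below the wild type without overlap, with log2 from -1.87 to -0.55 and adjusted p from 0.0596 to 0.41. Their family was also low in this comparison. Of 109 class III peroxidase genes tested, 21 were called lower and 5 higher in the mutant (median log2 -0.98). Between the genotypes, edgeR called the change from full medium to the libraries labelled no phosphate different for none of the 56 members. At an unadjusted p under 0.05 by edgeR were 4 members, beside 1542 of all 13016 genes. DESeq2 called 2 members, and its count over all genes is not given here. By edgeR 0.284% of all genes were called with a lower change in the mutant and 0.023% with a higher one.

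In the mutant libraries labelled no nitrate, which the rule used, the members had a median of -0.67 against the wild type. That is on the scale of the rule, with limits ±1, and the median over all genes tested was 0.01. Below the wild type lay 48 members, and 8 lay above it. Those above were Mp1g27050, Mp2g18580, Mp4g08050, MpPAL-like2, Mp4g14170, Mp4g17360, Mp4g20210 and Mp5g12200. Among the genes past both folds that lay beyond this limit, 62 were lower and 5 higher in the mutant. The wild-type values labelled no nitrate helped to choose all these genes, so a lower mutant is partly set by the rule. In full medium 35 of the members lay below and 21 above the wild type (median -0.08).

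In some groups most members were highest or lowest in the same library. Other groups were split. Among wild-type libraries labelled no phosphate, replicates 1, 2 and 3 were highest in 29, 24 and 3 members. The same counts were not made over all genes, so they are not read as a trait of the members. The first wild-type library labelled no nitrate was the lowest of its group in 55 of 56 members, with a median of 15.6 CPM over the members against 28.5 and 26.2 CPM in its partners. Mutant replicate 2 labelled no phosphate was the highest of its group in all 56 (median 18.4 CPM, against 11.0 and 8.26 CPM). In full medium wild-type replicate 3 was the highest in 37 members (3.52 CPM, against 1.51 and 1.93 CPM) and mutant replicate 3 the lowest in 43 (0.940 CPM, against 2.86 and 2.08 CPM). Without wild-type replicate 1 labelled no nitrate, the median log2 difference between the wild-type starved groups was 0.31, with 38 positive estimates, in place of 0.00 with 28. Without mutant replicate 2 labelled no phosphate, 41 members were called against full medium and the median log2 fold change was 2.12. Without mutant full-medium replicate 1 that median was 3.05, and without replicate 3 it was 2.10 with 42 called.

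**Figure D5:**
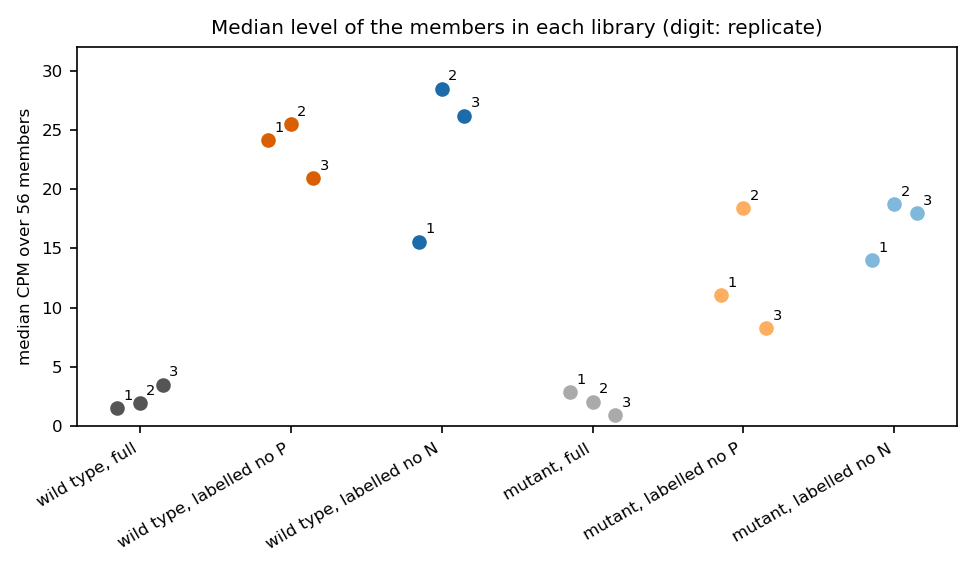
Median CPM over the 56 members in each of the 18 libraries, with the replicate number beside each point. Full-medium libraries lie between 0.940 and 3.52 CPM and starved libraries between 8.26 and 28.5 CPM, with wild-type replicate 1 labelled no nitrate and mutant replicates 1 and 3 labelled no phosphate low within their groups.

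By the order of locus numbers, 12 of the 56 members formed 6 adjacent pairs, and 20 had another member within 10 genes. Chromosome 4 held 14 members, chromosome 2 held 11, chromosome 5 held 10 and chromosome 1 held 2, with 2406, 2674, 2453 and 2976 genes in the table. The pairs were Mp2g21450 with Mp2g21460, MpPAL-like2 with Mp4g14170, MpPOD93 with MpPOD94, MpCYP822A2 with MpPOD129, MpPOD135 with MpPOD136, and Mp7g02000 with Mp7g02010. In the wild type Mp7g02010 was at 12.9, 13.2 and 10.2 CPM labelled no phosphate and at 10.9, 27.8 and 25.6 CPM labelled no nitrate, with its first library labelled no nitrate the lowest, as in Mp7g02000. Whether paired genes shared reads was not tested.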

How the data were processed

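Whole Marchantia plants were sequenced as directional libraries after poly(A) enrichment, per the labels' protocols. Whole-number read counts for each gene were deposited, per the file headers, with no normalization by the authors found. The submitters' processing notes name STAR 2.7 and DESeq2 without their roles. No counting program, strand setting or genome build is given in the sources used here, so reads of overlapping or antisense genes may be mixed. Columns of 9 lettuce libraries were not used, since the members are Marchantia genes.

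Symbols came from a name table of assembly MpTak2_v7.1 whose locus numbers matched 17384 of 18391 entries to the counts, which assumes alike numbering. Members, lists and the naming rule were chosen with earlier results of these data known. The rule named the 10 most abundant members with a symbol, up to 4 per list, called extremes, uncalled members and those at the threshold. MpCSLD2, MpPOD98 and identifiers without a symbol were added after their values were seen.

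Levels are CPM on library totals. Tests used edgeR 4.0.16 in R 4.3.3 on all 18 libraries as 6 groups: filterByExpr (13016 genes), TMM factors of 0.972 to 1.06, the quasi-likelihood F-test with robust dispersions and Benjamini-Hochberg adjusted p under 0.05. SE is that implied by log2 fold change and F. DESeq2 1.42.0 was an alternative. Replicate pairs differed by more than sampling noise (chi-square divided by its degrees of freedom was 3.55 to 21.2 for genes with 20 or more counts). The labels do not say that replicates are separate cultures, so p-values measure sample-to-sample spread alone, and that may be technical.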

Additional observations from a re-analysis of the deposited data

How the results depend on the processing

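The rise of the members in the mutant libraries labelled no phosphate kept its direction in all 56 genes under all 12 alternatives, with 41 to 50 members called when a library was left out and 44 to 52 otherwise. Calls between the wild-type starved groups numbered 7 (4 to 7 with a library left out), and between the mutant starved groups 16 (9 to 14). For mutant against wild type labelled no phosphate 3 members were called, 0 to 13 with a library left out, 11 with DESeq2, 1 with no filter on low counts, 10 with only those groups in the fit and 8 with a replicate block. The genotype difference in the change from full medium to the libraries labelled no phosphate called 0, 0 to 1 with a library left out and 2 with DESeq2. The causes were not tested.

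The rule itself gave 37 to 62 members with a library left out, 37 of them without wild-type or mutant full-medium replicate 1, and 8 members, among them MpCSLD2, were kept in all 15 such settings. A threshold of 2.5 gave 24 members and one of 1.5 gave 121. A pseudocount of 0.5 gave 55, of which 40 were among the 56. Of 57 calls of single genes followed through the alternatives 25 were lost in at least 1 alternative, and none changed sign.

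Replicate numbers are shared between groups, but were not taken to pair the samples, since the correlation of deviations was over 0.1 in only 11 of 45 same-numbered pairs (median 0.02), beside 14 of 90 pairs of other numbers. As a hint from the data, 11 of 18 libraries, not all, correlated best with their own number. With the replicate block 49 members were called in the mutant against full medium, 10 between the wild-type starved groups, 16 between the mutant ones, 8 (in place of 3) between mutant and wild type labelled no phosphate, and 0 in the genotype difference. Depth limits the 16 members under 1 CPM in full medium, whose folds rest on few reads.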
